A study of Drosophila melanogaster with 4 samples.

Results

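The Myc peaks described here are those that lie in the most crowded stretches of the Drosophila melanogaster genome. They were chosen from the peak positions themselves. The 5 long chromosome arms (X, 2L, 2R, 3L and 3R) were divided into bins of 100 kb, each peak was assigned to the bin of its midpoint, and every peak in a bin with 15 or more midpoints was taken. The rule found 823 peaks in 49 bins, out of 7768 peaks on these arms and 8614 in the whole list. These bins are called dense below. They are set against the 3018 peaks in the 505 bins that held 4 to 8 midpoints, called sparser bins.

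Chromatin immunoprecipitation with sequencing (ChIP-seq) was carried out on whole wandering larvae of the L3 stage, the last larval stage, with 2 libraries from an anti-Myc antibody and 2 libraries of input DNA. All 4 came from the strain Y cn bw sp, whose listed alleles on the first chromosome are y[1] and oc[R3.2]. The second chromosome carries Gr22b[1], Gr22d[1] and cn[1], with CG33964[R4.2], bw[1] and sp[1] also listed. For the third chromosome the labels name LysC[1] and lab[R4.2], as well as MstProx[1], GstD5[1] and Rh6[1]. The larvae were of unknown sex and were fixed in 1.8% formaldehyde for 15 min. The antibody, MycN, is a rabbit polyclonal raised against residues 46 to 507 of the fly protein. A whole larva mixes many tissues, so a peak may stem from any of them, and dense binding in 1 stretch need not come from a single cell type.

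Myc, encoded in flies by the gene diminutive (dm), is a basic helix-loop-helix leucine-zipper protein that pairs with Max and binds DNA at E-boxes, mostly near the starts of active genes. It drives cell growth, in large part through genes for ribosome production and metabolism. In larvae it acts both in the dividing imaginal discs and in the polyploid tissues, such as fat body and salivary gland, that grow by repeated DNA replication without division. Genes are packed unevenly along fly chromosomes, and binding sites near gene starts can be packed unevenly with them. A gene annotation of the list's build, FlyBase Release 5, was not used here, so stretches are named by Release 5 coordinates, no peak is assigned to a gene and no sequence is printed.

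Both kinds of bin come from the same list of peaks, which has no value for a single library. Replicates could not be compared and the sequencing depth is unknown. Positions chose the members, and the score and width of a peak come from the same peak call. All values are therefore descriptions, given without a test, and they carry no information on how replicate experiments would vary.

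Dense bins were rare, and they held more than their share of peaks by construction. They were 49 of the 1192 bins between the first base and the last peak of each arm, or 4.11%, and held 10.6% of the arms' peaks and 10.98% of the base pairs inside peaks. Without a pair of 2L bins with many wide peaks, described below, these shares were 10.1% and 9.68%. Of all bins, 71 had no midpoint, 505 had 4 to 8, and the median was 6. The fullest had 22. On either side of the threshold, the 17 bins with 15 midpoints had a median peak score of 49.4 and a median width of 712 bp, and the 25 bins with 14 midpoints had 53.3 and 720.5 bp.

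All 5 long arms carried dense bins. There were 12 on 2L, 12 on 3R, 10 on X, 8 on 2R and 7 on 3L. As a share of the bins of an arm this was 5.22% on 2L, 4.44% on X, 4.30% on 3R, 3.77% on 2R and 2.85% on 3L. Dense bins held 13.97% of the Myc peaks of 2L and 7.52% of those of 3L, the arms at the top and the bottom of this order. With each arm cut into 3 equal lengths, 17 dense bins lay in the telomeric part, 15 in the middle part and 17 in the centromeric part, against 168, 184 and 153 of the sparser bins. None had its centre in the last 1 Mb before the centromeric end of an assembled arm. At the telomeric ends, 3 had theirs in the first 1 Mb, on 2L, 2R and 3L. These stretches are short and only 4.11% of all bins were dense, so neither count shows a preference for an end.

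**Figure D1:**
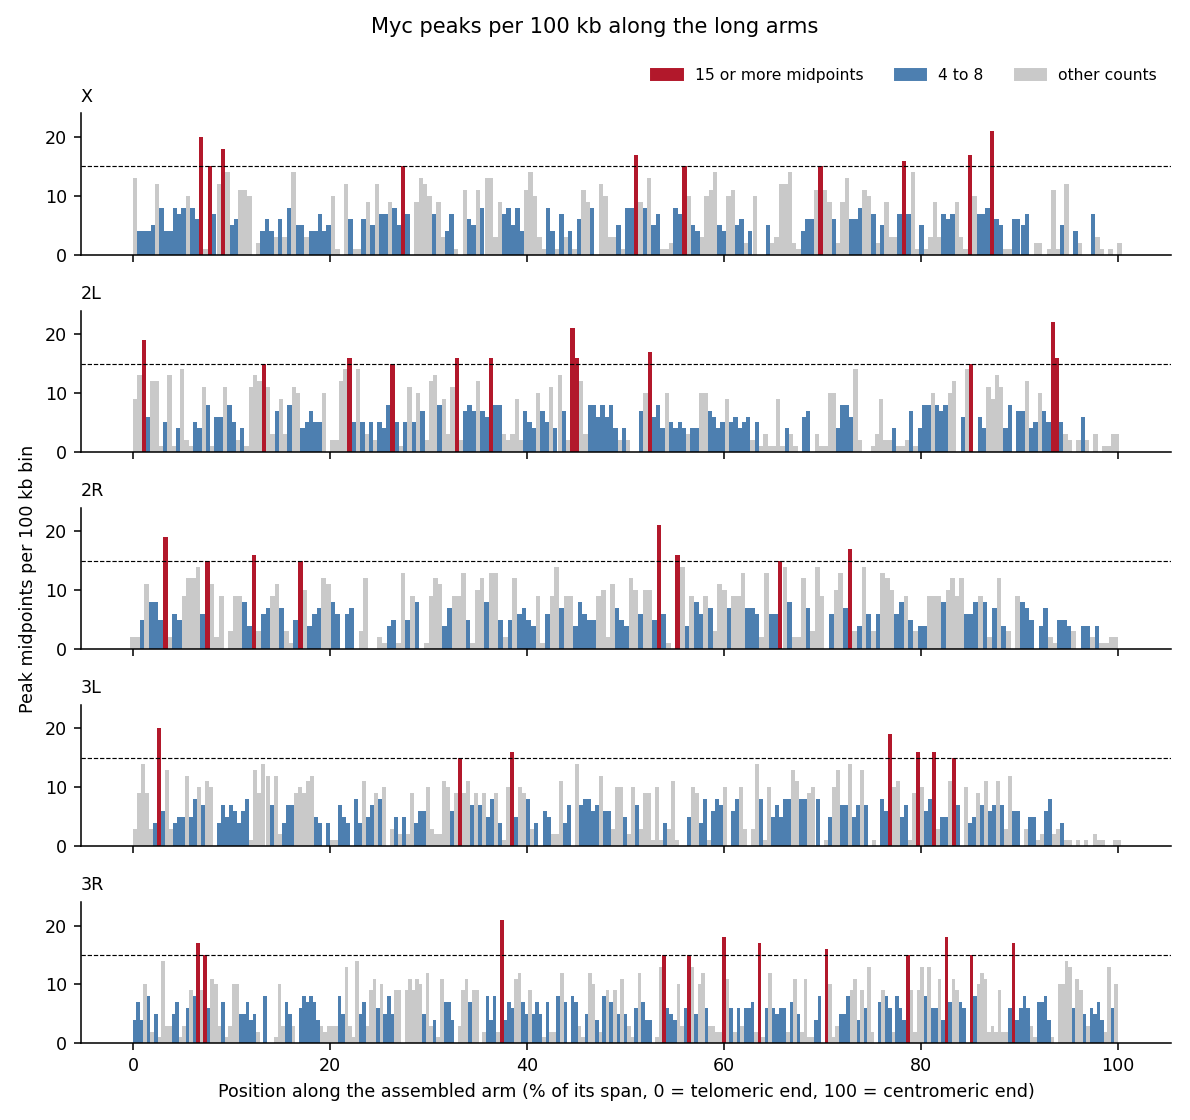
Number of Myc peak midpoints in each 100 kb bin (vertical axis) along the 5 long arms, with position as a percentage of the assembled arm from its telomeric end (horizontal axis). Red bars mark the 49 bins with 15 or more midpoints, blue bars the 505 bins with 4 to 8 and grey bars all other counts. The red bars stand apart from one another on every arm, and only 2 pairs touch, both on 2L.

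With the bins and the minimum used here, the dense bins were for the most part single bins, not stretches. The share that adjoined another dense bin was higher at some other settings, given below. Only 4 of the 49, or 8.16%, adjoined another dense bin. They formed 2 pairs, both on 2L, and there was no run of 3 or more. For comparison, 8.71% of the sparser bins and 8.05% of all bins adjoined a dense bin. The first pair covers 10200000 to 10399999 with 21 and 16 peaks. The second covers 21400000 to 21599999, near the base of the arm, with 22 and 16 peaks. The bins next to a dense bin held a median of 7 peaks (interquartile range 5 to 10, 98 neighbours), those next to a sparser bin 6 (4 to 9, 1009 neighbours). Of the 98 neighbours, 44 were themselves bins with 4 to 8 midpoints, or 44.9%, against 44.8% of the neighbours of sparser bins. Neighbours with 12 to 14 midpoints made up 11.2% beside dense bins and 8.92% beside sparser bins. The shares with 3 or fewer were 17.3% and 23.6%.

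A bin with no midpoint at all bordered 4 dense bins, or 8.16%, against 8.91% of the sparser bins and 11.4% of all bins. A bin with 3 or fewer bordered 16 dense bins, or 32.7%, against 41.4% of the sparser bins and 45.1% of all bins. On X, the bin from 1500000 to 1599999 held 20 peaks and the bin after it held 1, before another dense bin with 15 from 1700000 to 1799999. On 3R, the dense bin from 10100000 to 10199999 held 17 peaks between neighbours with 1 and 2. These examples were chosen after their values were seen. At a distance of 200 kb on either side, the median was 6 and 7 peaks per bin around dense bins and 7 on both sides of sparser bins.

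**Figure D2:**
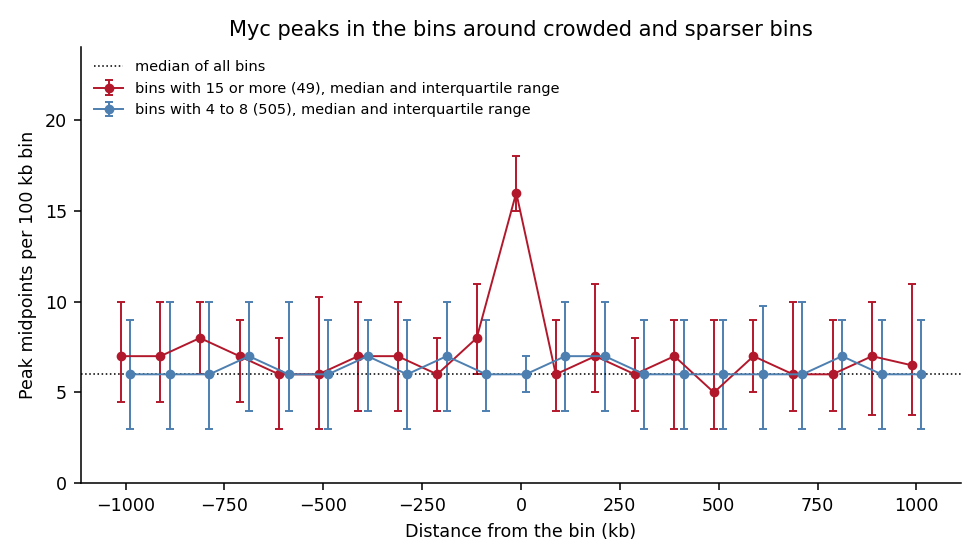
Median number of Myc peak midpoints per bin (vertical axis, with the interquartile range as error bars) at distances up to 1000 kb (horizontal axis) from the 49 dense bins (red) and the 505 sparser bins (blue). The red curve is at 16 in the bin itself, at 8 and 6 in the bins on its left and right, and between 5 and 8 at the other distances drawn, where the blue curve lies between 6 and 7.

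At a coarser scale, dense bins had another dense bin within 500 kb about as often as other bins did, and within 1000 kb somewhat more often. Neither difference was tested. Another dense bin began within 500 kb of 16 of the 49, or 32.7%, against 34.9% of the sparser bins and 34.3% of all bins. Within 1000 kb the shares were 63.3% (31 of 49), 55.4% and 54.0%. The median distance from the start of a dense bin to that of the nearest other one on its arm was 900 kb. As examples chosen after their values were seen, the dense bins on X starting at 1500000, 1700000 and 2000000 lay within one stretch of 600 kb. On 3L, those starting at 19500000, 19900000 and 20400000 followed each other at steps of 400 and 500 kb. The most remote dense bin had its nearest neighbour 7500 kb away.

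The fullest dense bins show how varied these stretches were. The one with the most peaks, 22, lay on 2L from 21400000 to 21499999, with a median score of 125.0 and a median width of 3849.5 bp. It was the extreme case for width, and 61.4% of its length lay inside peaks. Next came 4 bins with 21 peaks each, on X, 2L, 2R and 3R. The X bin, from 19500000 to 19599999, had a median score of 78.2 and a strongest peak of 581.94. Its peaks were spread over all 10 of its 10 kb parts. The 2L bin, from 10200000 to 10299999, had a median score of 41.9 and began right after a bin with 2 peaks. On 2R the bin from 9800000 to 9899999 had a median score of 33.5, although 3 of its peaks reached the top 10% of the list. On 3R the bin from 17400000 to 17499999 had a median score of 31.2 and held an interval of 22957 bp without a peak.

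The other 5 of the 10 fullest held 19 or 20 peaks. The X bin from 1500000 to 1599999 was made of weak peaks. Its 20 peaks had a median score of 16.3, the lowest of the 49, and a highest score of 299.44. The 3L bin from 600000 to 699999, also with 20 peaks, combined a low median of 28.9 with 5 peaks in the top 10%, more than any other dense bin. One of them, from 673055 to 674348, scored 816.43, the highest value among all members. The remaining 3 bins had 19 peaks each. Their median scores were 56.6 on 2L (200000 to 299999), 38.1 on 2R (20400000 to 20499999) and 26.9 on 3L (18800000 to 18899999). The fullest bin of every arm is among these 10.

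**Figure D3:**
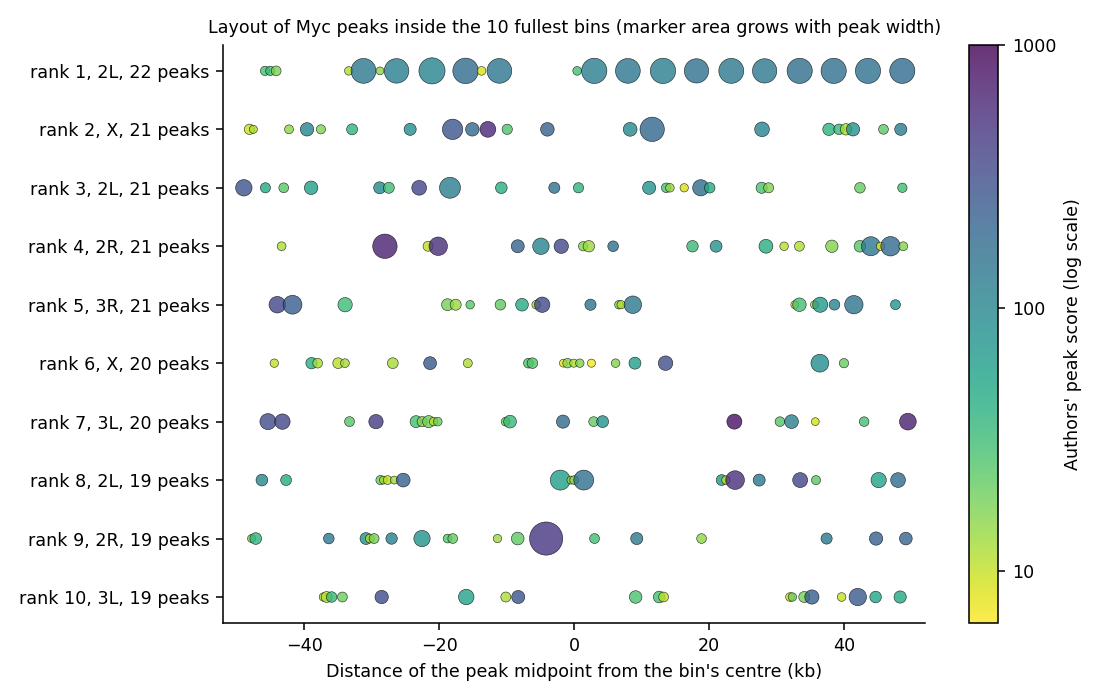
Layout of the Myc peaks inside the 10 fullest bins, one row per bin with the fullest on top and the distance of each midpoint from the bin's centre in kb on the horizontal axis. Marker area grows with peak width and colour gives the authors' score on a log scale. The top row shows wide peaks at mostly even spacing with a break. The other rows show clumps of small pale markers, which are narrow peaks of low score, beside a few wide dark ones.

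Peaks in dense bins had lower scores than peaks in sparser bins. The score is the authors' own value from the peak caller, on a scale that no header names, so only its order and its medians are used. The median was 47.5 in dense bins (interquartile range 18.2 to 138.1, n = 823 peaks) and 71.6 in sparser bins (25.5 to 170.9, n = 3018). It was 63.85 in bins with 1 to 3 midpoints, 59.82 with 9 to 11 and 61.09 with 12 to 14, all between these values. The sparser bins thus had the highest median of these classes, and over all bins that were not dense it was 64.7. Every called peak counts toward the total of its bin, weak ones included, so the score is not independent of the choice of bins. How far the choice sets the difference was not tested. With each bin reduced to its own median, the middle value was 47.1 over 49 dense bins and 75.4 over 505 sparser bins, and 6 dense bins reached 75.4. The ranges overlapped widely, from 16.3 to 125.0 for dense bins and from 10.985 to 463.0 for sparser bins. The median was lower in dense bins on each arm. The median on X was 38.9 in dense bins against 82.5 in sparser bins. On 2L the medians were 49.7 and 60.1, on 2R 41.1 and 75.04, on 3L 46.6 and 66.1, and on 3R 52.3 and 71.8.

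By the choice of bins, a dense bin held 2.81 times as many peaks as a sparser bin. Weaker peaks exceeded this ratio and stronger peaks fell short of it. The long-arm peaks were divided by score into 5 classes of equal size. Per bin, dense bins held 4.31 peaks of the lowest class against 1.10 in sparser bins, a ratio of 3.93. For the next classes the ratio was 3.28, 2.59 and 2.44. In the highest class it was 2.05, with 2.73 peaks per dense bin against 1.33 per sparser bin. Peaks in the top 10% of the whole list by score were 73 of 823 in dense bins, or 8.87%, and 356 of 3018 in sparser bins, or 11.8%, beside 10.7% of all long-arm peaks. The low share was not particular to dense bins, since it was 8.64% in bins with 12 to 14 midpoints. Counted per bin, these top peaks numbered 1.49 in dense and 0.705 in sparser bins. None was present in 11 of the 49 dense bins and in 239 of the 505 sparser bins. The highest score in a bin had a median of 395.2 over dense bins and 314.6 over sparser bins. This measure depends on the number of peaks in a bin, and how far was not tested.

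The 5 strongest members came from 5 different arms. After the 3L peak named above came one on X between 12504949 and 12506763, which scored 805.28 and was 1815 bp wide. The strongest member on 2L, at 798.26, extended from 7531606 to 7537854. Those on 3R, between 5964688 and 5966379, and on 2R, between 18573092 and 18575252, reached 766.39 and 763.99. Their surroundings differed. The 3L peak had 5886 bp and the X peak 14499 bp of free sequence to the nearest other peak, whereas the nearest neighbours of the 2L, 3R and 2R peaks were 266, 379 and 778 bp away. The weakest member, with 6.87, lay on X from 1552417 to 1552652.

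**Figure D4:**
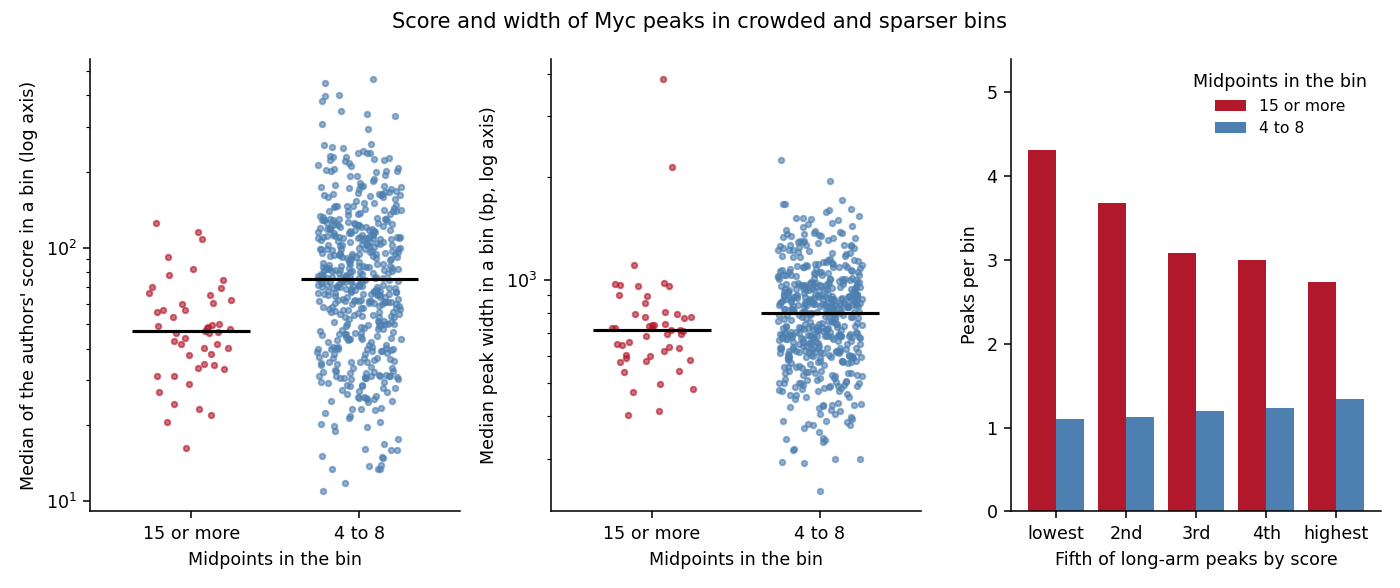
Left and middle, median score and median width in bp of the Myc peaks of each bin (points, log axes) for dense and sparser bins, with the median over bins as a black line, at 47.1 and 75.4 for the score and at 715 and 800.5 bp for the width. Right, peaks per bin in 5 score classes of equal size, where the dense bins hold 4.31 of the lowest and 2.73 of the highest class and the sparser bins 1.10 and 1.33.

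Members were slightly narrower than peaks of sparser bins. The median width was 699 bp in dense bins (interquartile range 402.5 to 1168.5) and 781 bp in sparser bins (475 to 1215). Bins with 1 to 3 midpoints had a smaller median still, 645 bp, and those with 9 to 11 and 12 to 14 had 744 and 765 bp. On 3L the order was the other way round, with 738 bp in dense bins and 729 bp in sparser bins. The direction also turned when peaks less than 500 bp apart were merged, which gave 920 bp in the 13 bins that were still dense and 845 bp in sparser bins. At like score the widths were close in most classes, and the direction was mixed. In the lowest score class the medians were 303 and 305.5 bp in dense and sparser bins, and in the next class 519 and 532.5 bp. They were 769 and 752.5 bp in the middle class, and 1369.5 and 1416.5 bp in the highest class. The class below the highest stood apart with 1182 bp in dense bins and 990.5 bp in sparser bins, and with 1061.5 bp once the second pair of 2L bins was left out.

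That second pair, from 21400000 to 21599999, differed from all other dense bins. It held 38 peaks, of which 23 were wider than 3000 bp, with scores from 105.92 to 209.25. Most of these wide peaks followed each other at steps of about 5 kb, with a median of 5043 bp between starts. The row was broken in the first bin of the pair, where 9441 bp after a wide peak held no peak. How many separate binding sites these mostly evenly spaced peaks mark was not tested, and no sequence was examined. None of the 38 reached the top 10% by score. Of the 44 members wider than 3000 bp, 23 were in this pair of bins. Without it, 2.68% of members were wider than 3000 bp, against 2.39% in sparser bins, while with it the share was 5.35%. Leaving the pair out moved the median score to 46.3 and the median width to 689 bp. Of the 47 dense bins that are left, 2 adjoined another.

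The widest members lay elsewhere. On 2R, a peak of 10526 bp between 9469179 and 9479704 scored 467.49, and its nearest neighbour was 55 bp away. On X, a peak between 19064238 and 19072041 was 7804 bp wide with a score of 549.29, and its nearest neighbour was 73 bp away. On 2L, a peak of 7739 bp between 7538121 and 7545859 scored 731.61 and lay 266 bp from the strong 2L peak named above.

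Crowding sets the mean spacing, so shorter intervals in dense bins follow in part from how the bins were chosen. Between neighbouring peaks of the same bin, the median interval was 2545.5 bp in dense bins (interquartile range 696 to 6331 bp, n = 774 intervals) and 6450 bp in sparser bins (2346 to 15470 bp, n = 2513). The mean was 4494 bp in dense bins and 11328 bp in sparser bins. The shares below a given length were higher in dense bins at each length examined. Under 1 kb lay 30.4% and 13.5% of the intervals, under 5 kb 68.5% and 43.1%, and under 20 kb 97.7% and 81.4%. Intervals under 500 bp made up 166 of 774 in dense bins, or 21.4%, and 238 of 2513 in sparser bins, or 9.47%, beside 12.1% over all bins. That is 3.39 such intervals per dense bin and 0.471 per sparser bin. Short intervals multiply as peaks are added to a bin, so this contrast also follows in part from the choice. No interval this short was found in 2 of the 49 dense bins and in 320 of the 505 sparser bins.

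**Figure D5:**
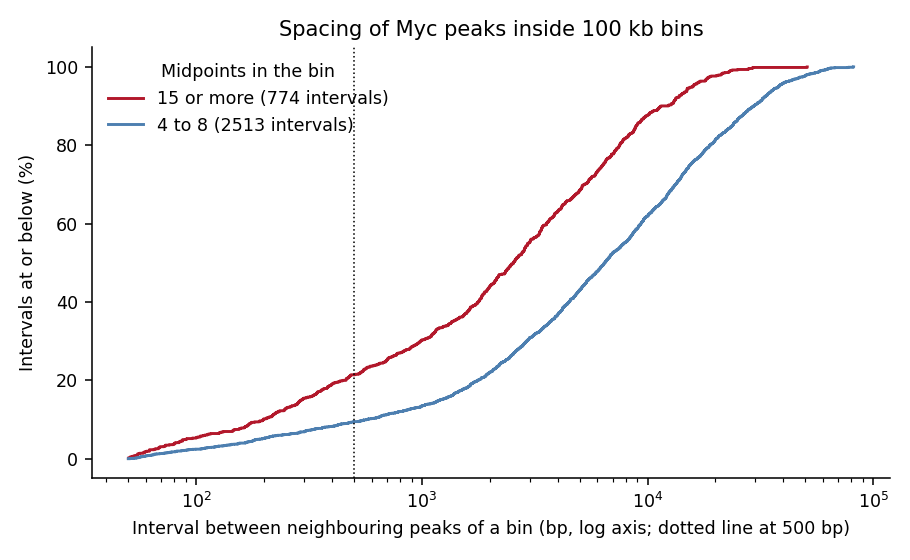
Cumulative share of intervals between neighbouring Myc peaks of the same bin (vertical axis, %) by interval length in bp (horizontal log axis) for dense bins (red, 774 intervals) and sparser bins (blue, 2513 intervals). The red curve lies above the blue one, at 21.4% against 9.47% at the dotted line of 500 bp.

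Dense bins were not filled evenly. A median of 8 of the 10 parts of 10 kb held a midpoint, with a range from 6 to 10, and the longest free interval had a median of 17042 bp. In sparser bins these medians were 4 parts and 28000 bp. Both measures depend on the number of peaks in a bin, and neither was compared with random placement. The longest free interval of a dense bin, 51044 bp, was on 3L, in the bin from 19900000 to 19999999. Peaks less than 1 kb apart were joined into chains, which likewise lengthen as a bin fills. In dense bins 55.8% of the peaks stood alone, 19.4% were in chains of 2 and 24.8% in chains of 3 or more, against 79.6%, 14.4% and 5.93% in sparser bins. Chains of 3 or more occurred in 37 of the 49 dense bins. Chains of 5 or more numbered 12 in dense bins and 0 in sparser bins, which have at most 8 peaks each.

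The longest chains had 11 peaks. One, on 2L from 21501615 to 21539494, is part of the row of mostly evenly spaced wide peaks. The other, on X from 19051474 to 19074582, extended over 23109 bp around the wide X peak named above, with a highest score of 549.29 and a median of 21.9. A chain of 7 on 2R, from 9465147 to 9481342, likewise had a highest score of 467.49 and a median of 20.2. On 3R and 3L, 3 further chains had 7 members and highest scores between 249.59 and 255.67.

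Close pairs scored lower than other neighbours. Each pair was sorted into a lower-scoring and a higher-scoring peak, which sets a gap between them by itself. In the 166 pairs of neighbours less than 500 bp apart in dense bins, the lower-scoring peak had a median of 13.2 and was 329 bp wide in the median, and the higher-scoring one had 72.5 and 1089.5 bp. In the 238 such pairs of sparser bins the values were 13.7 and 419.5 bp for the lower and 107.4 and 1168.5 bp for the higher peak. For neighbours of the same bin 500 bp or more apart, the medians were 25.8 and 121.8 for the lower and higher peak of 608 pairs in dense bins, and 34.0 and 142.4 for 2275 pairs in sparser bins. In close pairs, the lower peak was below the median score of the whole list, 61.16, in 94.0% of the pairs in dense bins and in 89.9% of those in sparser bins. Both were below it in 44.0% and 36.1%. The closest pairs were separated by 50 bp. One was on 3L, from 18812722 to 18813634, with scores of 12.79 and 10.81. The other was on X, from 11435613 to 11439982, where a peak of 244 bp with a score of 14.79 preceded one of 4076 bp with 183.07. With 51 bp, a pair on 2R, from 20418791 to 20419903, and one on 3R, from 12890404 to 12891420, shared the next place.

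Close neighbours were more common among members, and the difference in score was also present without them. A peak less than 500 bp away was present for 281 of the 823 members, or 34.1%, and for 458 peaks of sparser bins, or 15.2%, beside 18.8% of all long-arm peaks. The share was 5.23% in bins with 1 to 3 midpoints and 23.9% with 12 to 14, so this contrast also follows in part from the choice. Without peaks that close to a neighbour, the median score was 56.4 in dense bins (542 peaks) and 77.7 in sparser bins (2560 peaks). The median widths were 724 and 790 bp. The number of dense bins depended on close neighbours. With peaks less than 500 bp apart counted as 1, the same 49 bins held from 8 to 18 peaks with a median of 13, and 13 of them still had 15 or more. All but 3 of the 49 still had 10 or more. Whether such neighbours are separate binding sites or parts of 1 enriched region was not tested, since the list holds no signal between peaks.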

How the data were processed

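The labels describe 2 Myc ChIP libraries and 2 input libraries. Their peaks came as a single list, which names MACS as the program and FlyBase Release 5 as the build, per the file headers. MACS2, BWA, the build BDGP5 and CASAVA (1.7.0.2, 1.7.0.3) stand in the submitters' processing notes without roles. How strict the calling was, and whether libraries were pooled or peaks removed, is not given in the sources used here. Each score is the authors' own and its scale is unnamed; start and end count from 1.

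Midpoints (the integer part of the mean of start and end) were assigned to bins of 100000 bp counted from position 0, with empty bins up to the last peak of an arm included. Intervals are the bases between neighbouring peaks with midpoints in the same bin. No peak was filtered out. No test was made, because positions, score and width come from the same peak call and no value belongs to a replicate. Peaks of a bin are not independent. The members, the comparison bins and the rules for named bins and peaks (the 10 fullest bins, the fullest of each arm, runs of 3 or more, the 5 highest scores, the 3 widest peaks and the 3 closest pairs, of which a tie made 4) were set with earlier results of these data known. Binning and intervals were tried on a made-up list with planted bins, all of which were found. Python 3.11.15, pandas 2.3.3, numpy 2.4.6 and scipy 1.17.1 were used.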

Additional observations from a re-analysis of the deposited data

How the results depend on the processing

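Across 57 alternative values for 5 results, 37 stayed within 1.5 times of a count or within the 95% binomial interval of a share or median. The interval of a median treats peaks as independent, which peaks of a bin are not, so it serves only as a yardstick. With all other bins as comparison, the dense bins are unchanged, so their median score and width could not move. The median score of dense bins was below that of the comparison bins in all 13 alternatives, with differences from −29.7 to −13.9. The median width was lower in 12 of 13. The exception was merging peaks less than 500 bp apart, with 920 bp in dense and 845 bp in sparser bins. That merging left 13 dense bins and gave a median score of 57.8 and a median interval of 3410 bp. Taking bins of 200 kb with 30 or more midpoints gave 3 dense bins, or 0.503% of bins, of which 0% adjoined, and an interval of 1673 bp. Bins of 50 kb with 8 or more numbered 174, or 7.31% of bins, with 18.97% adjoining. A minimum of 18 midpoints gave 13 bins, or 1.09% of bins, with 0% adjoining and 2123 bp. A minimum of 12 gave 152 bins, or 12.8% of bins, with 31.6% adjoining, a median score of 53.7 and 3272 bp. The share of all bins that adjoin a dense one was not worked out at these settings or at the next one. With only peaks at or above the median score and a minimum of 8, 31.25% of the dense bins adjoined another, beside 5.37% of bins that were dense, and the medians were 147.6 for the score, 1137 bp for the width, against 1140 bp in sparser bins, and 6052.5 bp for the interval. These settings change the minimum, the bin or the peaks that count, so their values differ in part by construction. Leaving out peaks within 500 bp of a neighbour gave a median score of 56.4. This setting, bin medians and leaving out the second 2L pair were chosen after seeing the data. No paired analysis was possible because the peaks are not split by library, and no replicate could be left out. How many weaker peaks the unknown depth kept below the authors' threshold was not tested.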

Other observations

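The same bins were applied to the sequences outside the 5 long arms. Chromosome 4, with 99 peaks in 14 bins, had 1 bin with 15 midpoints, from 1300000 to 1399999. Its peaks had a median score of 84.7 and a median width of 924 bp. The unplaced sequences U and Uextra, with 86 and 598 peaks, and the 5 heterochromatin scaffolds had 0 such bins.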
